A study of Mus musculus with 4 samples.

Results

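Effector lineage transcription factors decide which fate an activated CD8+ T cell takes. The 7 genes described here, of 17561 in the count table, were taken as a fixed list of symbols (Tbx21, Eomes, Zeb2, Id2, Runx3, Prdm1 and Bhlhe40), and each was found under 1 Ensembl identifier. The levels below are the unique molecular identifiers (UMIs) of a gene in 1000000 UMIs (CPM), summed over the cells of a cell cluster and a library.

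T-bet (Tbx21) and eomesodermin (Eomes) are related T-box factors that direct cytotoxic function; T-bet favours short-lived effector cells, and Eomes is known from memory cells and from terminally exhausted cells. ZEB2, a zinc finger repressor, acts with T-bet in terminal effector cells, and BLIMP-1 (Prdm1) is a transcriptional repressor that drives terminal differentiation in T cells and plasma cell fate in B cells. ID2 holds E proteins inactive and permits effector differentiation, RUNX3 sets CD8 lineage identity and the residency program, and BHLHE40 supports cytokine production and mitochondrial fitness in activated and tissue-resident T cells.

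The cells were CD8+ T cells sorted from the bone marrow (BM) of mice 28 days (week 4) after stem cell transplantation (SCT). Donors and recipients were WT or CRBN transgenic mice on a C57BL/6 background, female and 8 to 12 weeks old per the methods, and all recipients carried Vk*MYC myeloma, a transplantable mouse plasma cell tumor. The 4 groups received control immunoglobulin (cIg) with vehicle, TIGIT inhibition (αTIGIT) with vehicle, cIg with lenalidomide, or αTIGIT with lenalidomide, the antibody from the day of transplant and lenalidomide from day 14. Each group gave 1 library of cells pooled from 5 mice, sequenced from the 5' end together with the T cell receptor (TCR). The deposited tables number the libraries 1 to 4 and the labels do not say which number is which treatment, so no treatment was compared, and library values serve only to show the spread.

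The libraries held 4237, 2003, 1725 and 3789 cells, with median depths of 7115 to 7669 UMIs per cell, and 7961 of all 11754 cells had a TCR call. The study's own names divide them into 8 clusters, naive (Tn), central memory (Tcm), transitory effector (transitory Teff), GzmB+ Teff, TIGIT+ Teff, TIM-3+ exhausted (TIM-3+ Tex), GzmA+ Tex and cycling cells. Genes of the CD8 T cell list (Cd3d, Cd3e, Cd3g, Cd8a, Cd8b1) summed to between 3655 and 7685 CPM in every cluster, and Cd4 stayed at or under 1.5 CPM. In GzmA+ Tex the macrophage list reached 1392 CPM against 10.3 to 87.5 elsewhere, led by Lyz2 at 291 CPM and Apoe at 274 CPM, and in Tcm the natural killer (NK) cell list reached 622 CPM against 64.8 to 240.0 elsewhere, while the NK-defining Ncr1 was at 4.9 CPM. In TIGIT+ Teff the nuclear RNA list (Malat1, Neat1, Kcnq1ot1) stood at 6808 CPM against 2373 to 3085 elsewhere. The parts these signals play in the levels below were not tested. The libraries shared 56 barcode sequences, found on 112 cells, and no doublets were removed here, nor do the sources used here state that they had been.

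The clusters were built on the same expression values, and a cell is not a replicate, so differences between clusters are descriptions without a test. All intervals are 95% intervals that cover counting error only.

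Tn had the lowest level of every factor except Tbx21, in each of the 4 libraries. The share of all genes that are lowest in Tn was not counted. Prdm1 and Zeb2 stayed under 10 CPM in both Tn and Tcm, Bhlhe40 was higher in Tcm than in Tn, and Eomes, Id2 and Runx3 stood about 2-fold higher in the 5 Teff and Tex clusters together than in Tn. Tbx21 followed none of these: over all libraries its highest level was in Tcm and its lowest in TIM-3+ Tex.

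**Figure D1:**
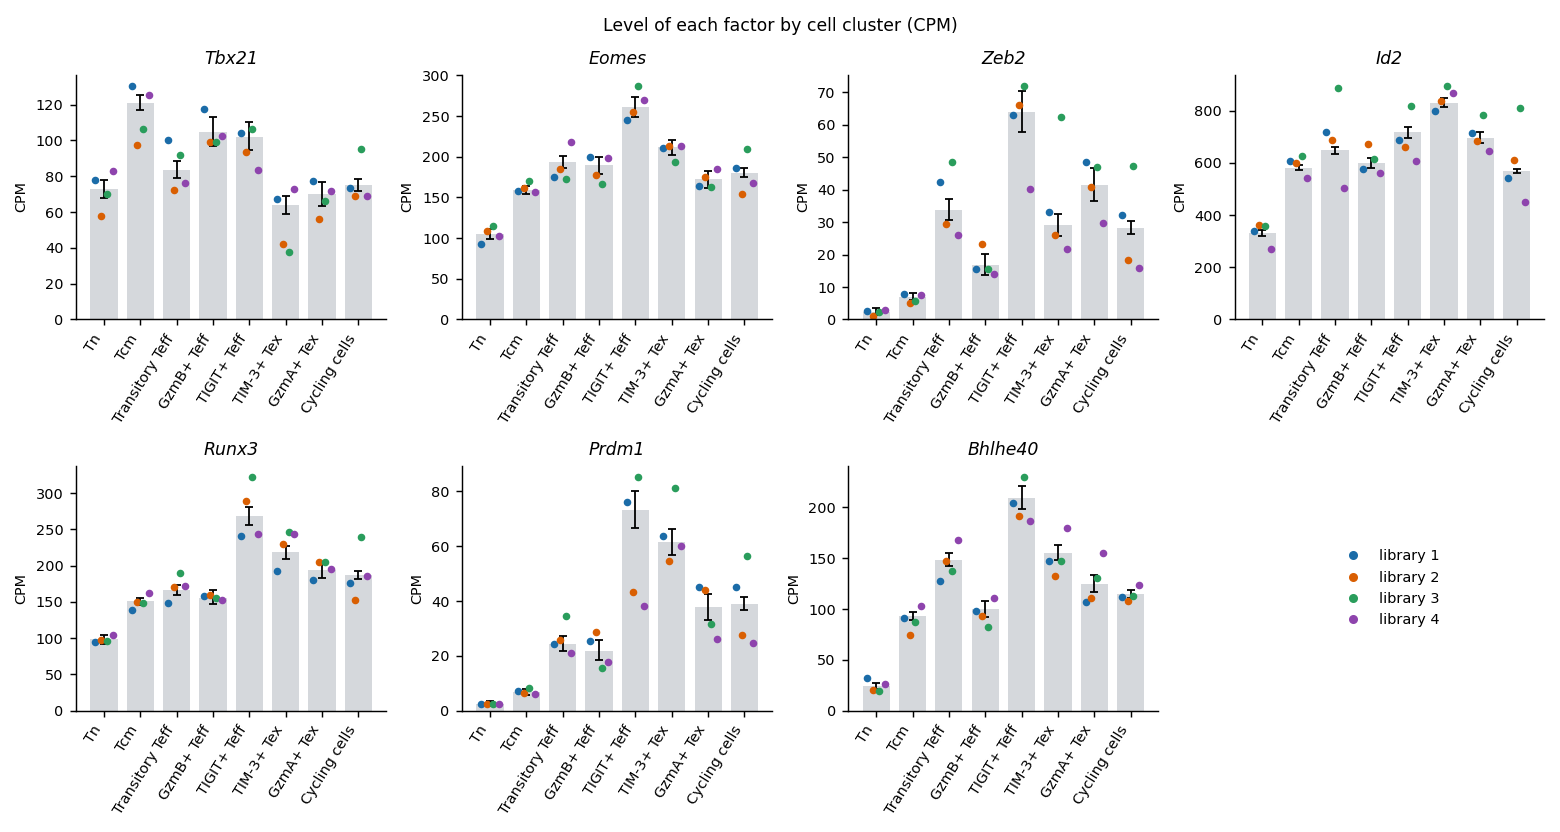
Level of each factor in CPM (vertical axis, from 0, its own scale in each panel) in the 8 cell clusters. Grey bars are the value over all libraries with its exact Poisson 95% interval, and dots are the 4 libraries. All panels but that of Tbx21 have their lowest bar in Tn, whereas the Tbx21 panel peaks in Tcm at 121 CPM and is lowest in TIM-3+ Tex at 63.9 CPM.

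Tbx21 (ENSMUSG00000001444, chr11:97098071-97115331 on the minus strand, GRCm38) and Eomes (ENSMUSG00000032446, chr9:118478212-118486132 on the plus strand) are shown first, because the 2 relatives took different courses. The RefSeq promoters are defined here as the 250 bases before the start site in GRCm38.p6. They are printed for this pair and for Prdm1, which had the highest pooled ratio of Teff and Tex to Tn. Capitals mark CAGGTG or its reverse complement, the E-box letters that ZEB factors bind.

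Tbx21: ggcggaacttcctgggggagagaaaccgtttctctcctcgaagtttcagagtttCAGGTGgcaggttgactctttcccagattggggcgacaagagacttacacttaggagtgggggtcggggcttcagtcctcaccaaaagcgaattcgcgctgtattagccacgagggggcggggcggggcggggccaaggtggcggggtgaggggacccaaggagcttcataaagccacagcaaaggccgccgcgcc
Eomes: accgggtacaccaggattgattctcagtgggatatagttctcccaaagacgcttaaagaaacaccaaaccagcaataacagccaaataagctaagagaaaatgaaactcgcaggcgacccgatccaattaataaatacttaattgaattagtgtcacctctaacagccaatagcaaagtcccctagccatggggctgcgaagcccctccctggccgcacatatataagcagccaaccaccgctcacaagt
Prdm1: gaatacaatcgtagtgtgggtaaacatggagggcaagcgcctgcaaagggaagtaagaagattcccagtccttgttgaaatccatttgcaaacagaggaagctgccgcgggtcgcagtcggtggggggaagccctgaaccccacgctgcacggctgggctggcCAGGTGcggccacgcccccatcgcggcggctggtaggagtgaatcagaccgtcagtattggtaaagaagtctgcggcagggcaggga

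These stretches lie at chr11:97115332-97115581 on the minus strand (Tbx21), chr9:118477939-118478188 on the plus strand (Eomes) and chr10:44458749-44458998 on the minus strand (Prdm1). Where a member had several RefSeq entries, only the one farthest upstream was searched, which was 1 of 4 for Zeb2 and 1 of 2 for Runx3. Their other entries were not searched, whereas the 32851 promoters used for comparison came from 27025 genes. CAGGTG, searched on both strands, occurred 1 time each in the promoters of Tbx21, Prdm1 and Runx3 and in 17.2% of 32851 RefSeq promoters of the same length. The Eomes, Zeb2 and Id2 promoters did not hold it, and Bhlhe40 was not among the promoters matched. The RUNX letters TGTGGT occurred 2 times in the Runx3 promoter and in no other member's, against 14.0% of all promoters. No member's promoter held AGGTGTGA (T-box, 1.12% of promoters, which overlaps CAGGTG where a C precedes it), CACGTG (BHLHE40, 6.02%) or AGNGAAAG (PRDM1, 7.30%). The Tbx21 window had 16 CpG dinucleotides and 60.8% GC and the Eomes window 8 and 46.4%, beside medians of 6 and 52.4% over all promoters. A match of letters is a description of the sequence and not of binding.

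Tbx21 stood at 130.3, 97.4, 107 and 125 CPM in the Tcm of libraries 1 to 4 and at 67.6, 42.3, 37.5 and 72.8 CPM in TIM-3+ Tex. The ranges did not overlap, and the TIM-3+ Tex level was lower in 4 of 4 libraries, with a log2 ratio of -0.92 (interval -1.05 to -0.80). Tbx21 was the only member with its lowest level in TIM-3+ Tex over all libraries. Single libraries departed from this order: GzmB+ Teff (99.0 CPM) stood above Tcm in library 2, and cycling cells (68.8 CPM) were lowest in library 4. The TIM-3+ Tex interval over all libraries also overlapped that of GzmA+ Tex. Library 3 held only 31 TIM-3+ Tex cells. Prdm1 was the 1 member of 6 tested past 2-fold between these clusters (3.18, 2.94 to 3.44), beside 5.5% of genes higher and 2.99% lower, among genes at 50 CPM on either side. Against Tn, 5 of 6 members tested were past 2-fold in TIM-3+ Tex (Eomes, Id2, Runx3, Prdm1 and Bhlhe40), beside 10.2% of 2926 genes higher and 2.63% lower. Tbx21 stood -0.19 (-0.34 to -0.04) from Tn there and was lower in 4 of 4 libraries.

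Between those ends Tbx21 was at 105 CPM in GzmB+ Teff, 102 in TIGIT+ Teff, 83.7 in transitory Teff, 75.3 in cycling cells, 72.7 in Tn and 69.9 in GzmA+ Tex. GzmB+ and TIGIT+ Teff overlapped in their intervals, as did cycling cells, Tn and GzmA+ Tex in sequence. Over all Teff and Tex, Tbx21 stood 0.19 (0.08 to 0.30) above Tn on the log2 scale, with library values of 0.20, 0.26, 0.37 and -0.05, so the direction was not shared by library 4. Tn cells were not without T-bet message: after each cell was thinned to 2500 UMIs, 16.5% (14.6 to 18.6) of Tn cells and 26.6% (25.1 to 28.1) of Tcm cells had a Tbx21 UMI, at median depths before thinning of 7834 and 6958. Without thinning these shares were 39.2% and 54.4%.

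Eomes had its highest level in TIGIT+ Teff in all 4 libraries, at 246, 255, 287 and 270.1 CPM. TIM-3+ Tex followed at 211 CPM over all libraries, with a library range of 194 to 213. Transitory Teff (194), GzmB+ Teff (189), cycling cells (181) and GzmA+ Tex (172) formed a group in which each interval overlapped that of its neighbour. Tcm at 159.5 CPM and Tn at 105 CPM closed the order, and Tn was lowest in 4 of 4 libraries. The log2 ratio of Teff and Tex to Tn was 0.96 (0.87 to 1.05), within 0.82 and 1.13 in the single libraries.

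The T-box pair was then set against each other. There were 1.32 Eomes UMIs per Tbx21 UMI in Tcm and 1.44 in Tn, 1.80 in GzmB+ Teff, 2.31 in transitory Teff, 2.40 in cycling cells, 2.46 in GzmA+ Tex and 2.55 in TIGIT+ Teff, and 3.31 in TIM-3+ Tex. Gene length and capture enter such a ratio and its size says nothing about protein balance. Ratios for TIGIT+ Teff also varied with gene length, as given further on, so the value of that cluster is read with its Eomes and Tbx21 lengths of 7921 and 17261 bases. TIM-3+ Tex had the highest ratio in libraries 1, 2 and 3 (3.12, 5.04 and 5.17), and in library 4 its 2.93 came after the 3.23 of TIGIT+ Teff. The library 3 value rests on 62 Eomes and 12 Tbx21 UMIs. Its log2 interval (1.46 to 3.40) overlapped that of TIGIT+ Teff in the same library (1.19 to 1.67).

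**Figure D2:**
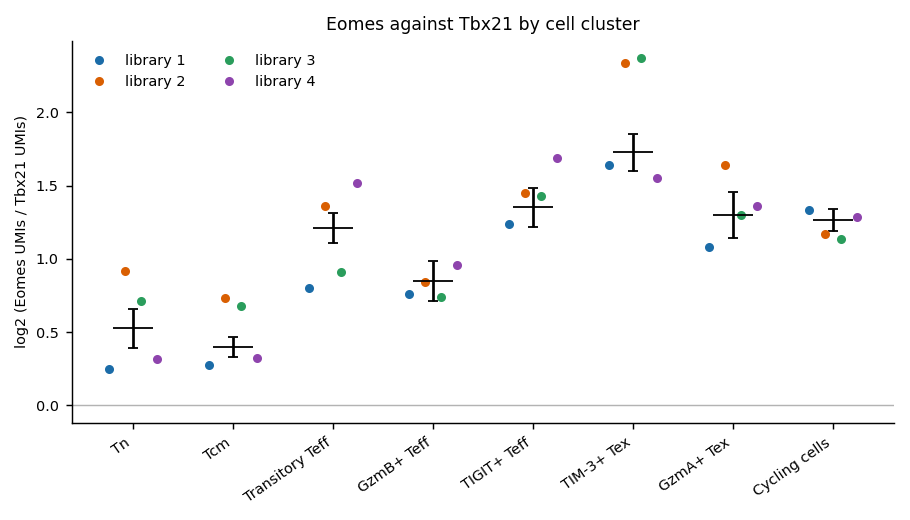
Log2 of Eomes UMIs over Tbx21 UMIs (vertical axis) in each cell cluster. Black marks are all libraries with the 95% counting interval and dots are the single libraries. Tn and Tcm sit lowest, at 0.53 and 0.40, and TIM-3+ Tex highest, at 1.73.

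Prdm1 (ENSMUSG00000038151, chr10:44437177-44528501, minus strand) had the highest pooled ratio of Teff and Tex to Tn of the 7. Its level in Tn was 2.35, 2.40, 2.61 and 2.54 CPM in libraries 1 to 4, from 27 UMIs in all. TIGIT+ Teff reached 76.0, 43.3, 85.1 and 38.3 CPM and TIM-3+ Tex between 54.5 and 81.2 CPM. These ranges overlapped with each other and lay far from Tn: over all Teff and Tex the log2 ratio to Tn was 4.09 (3.55 to 4.70), with library values of 3.65 to 4.43. That interval overlapped the one of Zeb2 (3.96, below), whose ratio was larger in libraries 2 and 3. With a pseudocount of 10 CPM the ratios were 2.07 for Prdm1 and 2.20 for Bhlhe40, which then stood first.

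Prdm1 also separated the late clusters. TIM-3+ Tex stood above transitory Teff in 4 of 4 libraries, at 61.4 against 24.5 CPM and a log2 ratio of 1.33 (1.13 to 1.53). It was the 1 factor of 6 tested past 2-fold there, where 1.28% of 2891 genes were higher by that rule (past 2-fold over all libraries and in the same direction in each). Runx3 (0.39), Id2 (0.36), Eomes (0.13) and Bhlhe40 (0.07) differed less, and Tbx21 was lower by a log2 ratio of -0.39 (-0.53 to -0.25), in 4 of 4 libraries. Zeb2 had a log2 ratio of -0.22 (-0.43 to -0.00), with library 3 in the opposite direction.

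Clones present in both clusters allowed the comparison between cells of common origin. In all, 74 clones, counted within libraries, had 687 transitory Teff cells and 506 TIM-3+ Tex cells, and their Prdm1 stood at 34.5 and 82.1 CPM, a log2 ratio of 1.25 (0.94 to 1.56). All 4 libraries were higher, from 0.17 in library 2 to 1.93 in library 3. Id2 was 0.61 (0.53 to 0.69) higher in the TIM-3+ Tex members of these clones, again in 4 libraries. Tbx21 (-0.19, -0.47 to 0.08) and Eomes (-0.07, -0.21 to 0.07) had intervals that included 0. Runx3 was 0.20 (0.05 to 0.36) higher, in 3 of 4 libraries. Zeb2 was 0.47 (0.05 to 0.89) higher, opposite in sign to the whole clusters, with library values of 0.02, -0.08, 1.44 and 0.81. Library 3, with the highest Prdm1 and Zeb2 values, held only 7 shared clones, with 15 TIM-3+ Tex and 31 transitory Teff cells. Without cells whose cluster number disagreed with their name (described with clone size), the Prdm1 ratio was 1.39, the Zeb2 ratio 0.55 and the Tbx21 ratio -0.34 (-0.65 to -0.03). Id2 was then at 0.53 (0.44 to 0.63), and the Runx3 interval included 0, at 0.14 (-0.04 to 0.31).

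Zeb2 (ENSMUSG00000026872, chr2:44983632-45117395, minus strand) was at 1.2 to 2.85 CPM in the Tn of single libraries and at 63.1, 66.1, 71.9 and 40.1 CPM in TIGIT+ Teff. No library overlapped between the 2 clusters, and TIGIT+ Teff was the highest cluster for Zeb2 in all 4. GzmA+ Tex (41.4), transitory Teff (33.7), TIM-3+ Tex (29.0) and cycling cells (28.4) overlapped neighbour with neighbour, GzmB+ Teff had 16.7 CPM and Tcm 7.06 CPM. In GzmA+ Tex, 83.4% of cells carried 3 or more UMIs of the macrophage and plasma cell lists, and Zeb2 was at 43.3 CPM in those cells and at 27.8 CPM in the rest (log2 ratio 0.64, 0.01 to 1.34). Macrophages also express Zeb2, and their part in the GzmA+ Tex value was not tested.

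Over all Teff and Tex, Zeb2 stood 3.96 (3.39 to 4.59) above Tn on the log2 scale. After thinning, 16.1% (13.6 to 18.8) of TIGIT+ Teff cells had a Zeb2 UMI against 0.596% (0.258 to 1.17) of Tn cells, the cells here that should lack it, and 1.58% (1.19 to 2.06) of Tcm cells. The median depth of TIGIT+ Teff before thinning was 6047 UMIs, below that of Tn. Antisense transcripts overlap 4 of the members, among them Zeb2os at 59 UMIs in the table beside 2490 for Zeb2, and Gm33460 at 341 beside 18785 for Eomes. Whether the counting used strand is not given in the sources used here.

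Bhlhe40 (ENSMUSG00000030103, chr6:108660629-108666925, plus strand) already stood higher in Tcm than in Tn. It stood at 19.4 to 32.1 CPM in Tn and at 91.5, 74.0, 87.7 and 103 CPM in Tcm, without overlap, a log2 ratio of 1.94 (1.75 to 2.12). It was the 1 member of 5 tested that was past 2-fold between Tcm and Tn, beside 2.87% of 2611 genes. Zeb2 (1.62, 1.01 to 2.29) and Prdm1 (1.45, 0.86 to 2.09) were also higher in Tcm in 4 of 4 libraries but were under 50 CPM on both sides. TIGIT+ Teff was highest in all libraries at 210 CPM (library range 186 to 229), followed by TIM-3+ Tex at 156 and transitory Teff at 149, whose intervals overlapped.

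Id2 (ENSMUSG00000020644, chr12:25093799-25097140, minus strand) had its highest level in TIM-3+ Tex in each library, at 798, 836, 894 and 868 CPM, and its Tn levels were 340.5, 362, 359 and 272 CPM. The largest spread between libraries was in transitory Teff, from 504 CPM in library 4 to 889 in library 3. Id2 was the most broadly detected factor, with a UMI in 87.9% of all cells.

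Runx3 (ENSMUSG00000070691, chr4:135120652-135177990, plus strand) had levels that ran from 98.4 CPM in Tn through 151 in Tcm, 156 in GzmB+ Teff and 167 in transitory Teff up to 268 in TIGIT+ Teff, with TIM-3+ Tex next to the top at 218. The GzmB+ Teff interval overlapped those of Tcm and of transitory Teff. Library 4 placed TIM-3+ Tex (244.2 CPM) and TIGIT+ Teff (244.0 CPM) level.

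By the 2-fold rule, Id2 (1.09, 1.04 to 1.14) and Bhlhe40 (2.60, 2.43 to 2.79) were the members called higher in Teff and Tex than in Tn, 2 of 5 tested, beside 7.97% of 2936 genes higher and 1.29% lower. Zeb2 and Prdm1 had larger ratios but stayed under 50 CPM on both sides and were not among those tested. Runx3, at 197 against 98.4 CPM, came just short of the threshold, and Eomes and Tbx21 lay under it. These calls turned on the weighting of cells: Id2 fell to 0.88 with 1 cell per clonotype and lost its call, Runx3 passed at 1.10 with thinning and at 1.06 with every cell weighted the same, and Eomes passed at 1.02 with that weighting. Leaving out library 1 or 4 also put Runx3 past the threshold, as did leaving out library 3 for Eomes. Within cycling cells, every member lay within 2-fold of the Teff and Tex level (0 of 5 tested), where 7.35% of genes were higher and 0.671% lower. Their log2 ratios ran from -0.37 for Bhlhe40, lower in 4 of 4 libraries, to -0.08 for Runx3.

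Other factors showed how the members fit among lists chosen for this tissue. Of 9 exhaustion factors 5 were tested and all 5 were higher in Teff and Tex than in Tn, among them Tox, which programs exhaustion (353 against 40.1 CPM), and the orphan nuclear receptor Nr4a2 (178 against 12.3 CPM). Of 9 stemness factors 6 were tested and 3 were lower, namely Satb1 (-1.96), Lef1 (-1.61) and Tcf7 (-1.12), the factor of self-renewing T cells. Among 10 paralogs and partners of the members, 4 were tested and 1 was higher, Runx1 at 54.5 against 22.8 CPM. Zeb1, the relative of Zeb2, did not share its course, at 29.4 CPM in Teff and Tex and 31.4 in Tn (log2 ratio -0.09, libraries -0.37 to 0.49). Id3, which opposes Id2 in memory cells, was among the genes lower in TIM-3+ Tex than in transitory Teff, at 18.5 against 88.9 CPM, where Id2 was higher.

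The surface and effector genes that these factors are known to control divided in the same contrast. Of 12 terminal effector genes 8 were tested, 5 were higher and 1 was lower in Teff and Tex than in Tn, with Gzma at 729 against 18.3 CPM, Gzmb at 461 against 45.1, and the egress receptor S1pr1 at 40.1 against 94.8. Of 9 residency and memory genes 7 were tested, with Cxcr6 higher (349 against 65.0 CPM) and Ccr7 and Il7r among those lower. Cxcr6 marks resident cells, and Ccr7 and Il7r are markers of naive and memory cells.

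TIGIT+ Teff had the highest level over all libraries of Eomes, Zeb2, Runx3, Prdm1 and Bhlhe40. The share of all genes that are highest there was not counted. This cluster differed from the others in a property of the whole transcriptome. Against the other Teff and Tex, Zeb2 was 1.06 (0.89 to 1.22) higher, Prdm1 0.99 (0.84 to 1.14), Bhlhe40 0.61 (0.52 to 0.69), Runx3 0.54 (0.47 to 0.62), Eomes 0.43 (0.35 to 0.50), Tbx21 0.36 (0.24 to 0.49) and Id2 0.04 (-0.01 to 0.08) on the log2 scale. Zeb2 was past 2-fold, 1 of 7 tested, beside 15.3% of 3598 genes higher and 0.278% lower. The median ratio climbed with gene length over all tested genes, from -0.31 for 490 genes up to 5000 bases and -0.07 for 1137 genes from there to 20000 bases, to 0.51 for 1352 genes up to 80000 bases and 0.96 for 617 longer genes.

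Read against genes of their own length, the order of the members changed. Zeb2 (133764 bases) and Prdm1 (91325 bases) exceeded 59.6% and 52.4% of genes over 80000 bases, and Runx3 (57339 bases) 52.0% of its class. Bhlhe40 (6297 bases) exceeded 89.9% of genes of like length, Eomes (7921 bases) 82.8%, Id2 (3342 bases) 81.6% and Tbx21 (17261 bases) 79.6%. By the full annotated span, the short factors thus lay high among genes of their class and the long factors near its middle. The Prdm1 promoter printed above lies inside the span of its gene, so the length from that start is shorter. The rank of Prdm1 by that shorter length was not computed. The share of these differences that goes with the nuclear RNA of the cluster was not tested.

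**Figure D3:**
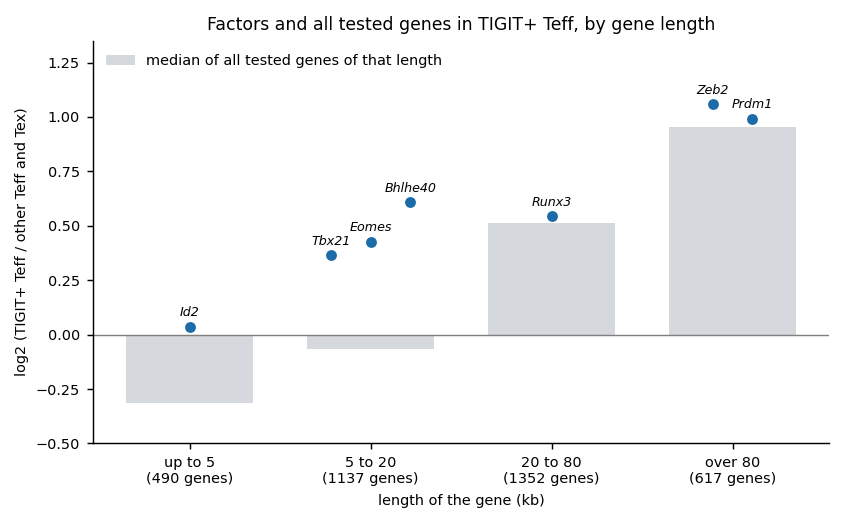
Log2 ratio of TIGIT+ Teff to the other Teff and Tex clusters (vertical axis) by length of the gene in kilobases (horizontal axis). Grey bars are the median of all tested genes in a length class and dots are the factors. Zeb2, Prdm1 and Runx3 sit close to the median of their class, and Bhlhe40, Eomes, Tbx21 and Id2 above theirs. Length is the full annotated span, and the RefSeq start of Prdm1 lies inside its span.

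Single cells often held more than 1 factor. After thinning, a TIGIT+ Teff cell had a UMI of 2.71 of the 7 factors on average, a TIM-3+ Tex cell 2.28, a transitory Teff cell 2.01, a Tcm cell 1.81 and a Tn cell 1.13. Cells with both genes were compared with independent detection over 168 combinations of pair and cluster. The interval of the ratio lay above 1 in 4 of them and below 1 in 0. With this many intervals, some would lie above 1 through counting error alone, and their number was not corrected for. Among the 122 with over 20 cells expected the median ratio was 1.04, so most pairs were found together about as often as independent detection would give. In TIGIT+ Teff, Zeb2 and Prdm1 were found together in 35 cells where independent detection within libraries would give 23.6, a ratio of 1.48 (1.03 to 2.06). In transitory Teff, Tbx21 and Zeb2 were found together in 50 cells where 29.8 would be given, a ratio of 1.68 (1.25 to 2.21), above 1 in 4 of 4 libraries. The other 2 were Eomes with Zeb2 and Runx3 with Prdm1, both in TIGIT+ Teff. The Tbx21 and Zeb2 pair led to a closer view of those cells, chosen after its values were seen.

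Summed over cells, some terminal effector genes stood higher in transitory Teff cells with a Zeb2 UMI than in those without. Joint detection of these genes with Zeb2 in single cells was not counted. A Zeb2 UMI was found in 157 of 1891 thinned transitory Teff cells, of which 58, 38, 21 and 40 came from libraries 1 to 4. S1pr5, the sphingosine phosphate receptor of circulating effector and NK cells, had 47 UMIs in these 157 cells and 41 in the 1734 cells without Zeb2, which is 119.7 against 9.46 CPM and a log2 ratio of 3.66 (3.03 to 4.30). The library ratios were 4.08, 1.06, 4.08 and 3.82, so library 2 stood apart with the smallest difference.

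Klrg1, the receptor by which short-lived effector cells are recognized, was at 153 against 35.3 CPM in the same cells (log2 ratio 2.11, 1.66 to 2.55), with library 2 at 0.20 and the others at 2.08 to 2.70. Cx3cr1, the fractalkine receptor of cytotoxic effector cells, was at 201 against 69.0 CPM (1.55, 1.17 to 1.91), and Tbx21 at 163 against 83.0 CPM (0.97, 0.57 to 1.36), each higher in 4 of 4 libraries. The Tbx21 difference restates the joint detection by which the split was chosen. Fasl (0.63, 0.26 to 0.98), the death ligand, was higher in 4 of 4 libraries too. Tox (-0.71, -1.04 to -0.40), its partner in exhaustion Nfatc1 (-0.61, -1.09 to -0.17) and the chemokine receptor Cxcr3 (-0.72, -1.10 to -0.35) were lower in 4 of 4 libraries. In cells used at full depth the ratios were nearer 0, at 1.48 for Klrg1, 1.03 for Cx3cr1, 0.54 for Tbx21 and -0.19 for Tox.

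By the 2-fold rule, 12 of 3053 genes (0.393%) were higher in the cells with Zeb2 and 8 (0.262%) were lower, with no member among them (0 of 5 tested). Of the 11 terminal effector genes tested, 3 were among the higher, S1pr5, Klrg1 and Cx3cr1. The others that were higher included As3mt (53.5 against 12.7 CPM) and Il18rap, a chain of the IL-18 receptor (107 against 49.8 CPM), and Jun, an AP-1 factor, was among the lower (43.3 against 94.6 CPM). With 157 cells, many genes of this kind rest on few UMIs.

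The remaining members differed less between these cells. Runx3 (-0.10, -0.49 to 0.27), Prdm1 (-0.02, with 12 UMIs in the cells with Zeb2) and Bhlhe40 (0.03, -0.37 to 0.41) had intervals that included 0, and Eomes was at 0.33 (0.01 to 0.64). Klf2, which maintains egress receptors, was 0.59 (0.43 to 0.74) higher in thinned cells and -0.09 in cells used at full depth, so its direction depended on the thinning. Before thinning, the cells with a Zeb2 UMI had a median depth of 4638 UMIs and those without 5580. The part of depth in these ratios was not tested. The cells with a Zeb2 UMI were T cells by their markers, with Cd8a at 759 against 748 CPM and a TCR call in 78.3% against 76.2%. Of the NK cell list, Klre1 (237 against 119 CPM) and Klrb1c (38.2 against 10.1 CPM) were higher in 4 of 4 libraries, Klra8 had 0 UMIs in the cells with Zeb2, and Ncr1 had 3 UMIs at full depth in each of the 2 sets. As for other cells, 8.92% against 6.98% of the cells held 3 or more macrophage and plasma cell UMIs, and without those cells the S1pr5 ratio was 3.73.

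**Figure D4:**
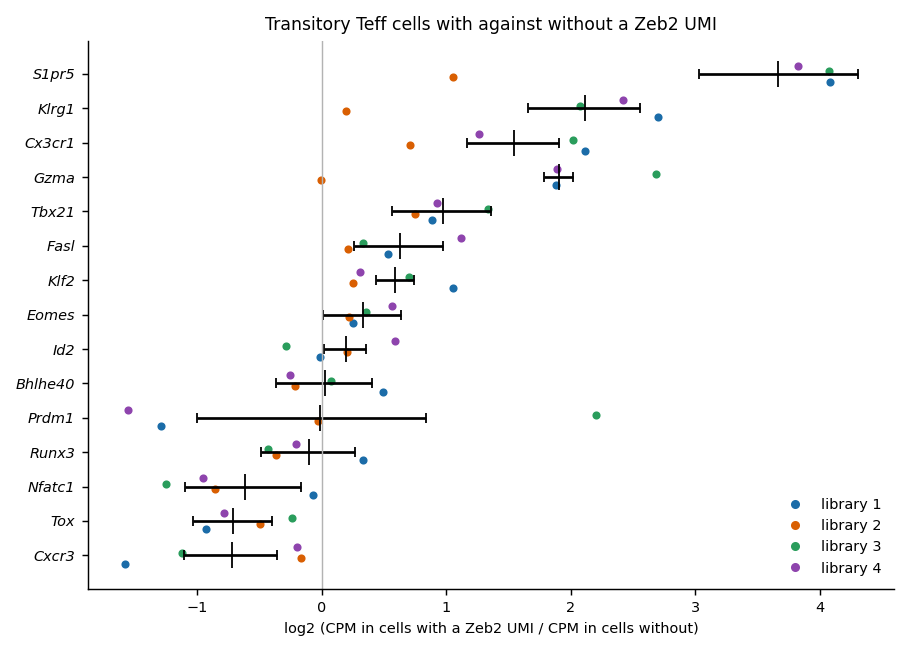
Log2 ratio of CPM in transitory Teff cells with a Zeb2 UMI to those without (horizontal axis), each cell thinned to 2500 UMIs, for factors and effector genes (vertical axis). Black marks are all libraries with the 95% counting interval and dots the single libraries. S1pr5, Klrg1 and Cx3cr1 lie at 3.66, 2.11 and 1.55, with library 2 nearest 0 in each, and Tox and Cxcr3 lie below 0.

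TIGIT+ Teff cells were split in the same way. There the 131 cells with a Zeb2 UMI had more Prf1, encoding perforin (467 against 214 CPM, log2 ratio 1.12), more Gzmb (998 against 593 CPM, 0.75) and more Eomes (424 against 274 CPM, 0.63), each in 4 of 4 libraries. Their Tbx21 was at 134 against 112 CPM, with an interval from -0.25 to 0.74. S1pr5 had 5 UMIs in those cells and 12 in the other 685, too few to compare. The difference between clusters was not tested. These genes were picked after values were seen, and the share of all genes that differ in this way in TIGIT+ Teff was not counted.

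Cells with a Prdm1 UMI were set against those without in the same way, and the genes named were picked after values were seen. In transitory Teff, the 137 such cells had less Tcf7 (49.6 against 129.5 CPM, log2 ratio -1.38, -2.17 to -0.69) and less Il7r, the IL-7 receptor of memory cells (55.5 against 103 CPM, -0.90), with more Gzmb (686 against 419 CPM, 0.71). In cycling cells, the 180 with a Prdm1 UMI had more Nfatc1 (0.80, 0.52 to 1.07), Tox (0.77, 0.57 to 0.96) and Ikzf2 (0.76, 0.44 to 1.07). These differences had the same direction in 4 of 4 libraries. The genes named differ between the clusters, and the share of all genes that differ in this way was not counted.

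Clone size gave a measure that had no part in the building of the clusters. A clonotype was counted as expanded when 2 or more cells of a library shared it and as single otherwise, and levels were compared within a cluster. The 3 clusters plotted were chosen after their values were seen, and the others follow more briefly. In GzmB+ Teff, the 141 expanded cells (91 clones) had Prdm1 at 47.5 CPM and the 361 single cells at 7.03 CPM, a log2 ratio of 2.76 (1.95 to 3.60). Zeb2 differed likewise, at 29.5 against 8.04 CPM (1.88, 0.99 to 2.76), and Bhlhe40 at 171 against 61.3 CPM (1.48, 1.14 to 1.81). The Zeb2 values rest on 23 and 24 UMIs. Zeb2 was also higher in GzmB+ Teff cells with macrophage and plasma cell UMIs, whose part here was not tested.

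All 3 of those factors were higher in the expanded cells of all 4 libraries. Bhlhe40 was the 1 member of 5 tested past 2-fold, beside 4.07% of 2896 genes higher and 1.62% lower, and Prdm1 and Zeb2 were under 50 CPM on both sides. Tbx21, at 104 against 105 CPM (-0.02, -0.39 to 0.34), and Eomes, at 167 against 183 CPM (-0.13, -0.42 to 0.15), had intervals that included 0 in the same cells. Tox was at 415 against 62.6 CPM (2.73, 2.46 to 2.99) and Tcf7 at 68.0 against 146 CPM (-1.11, -1.55 to -0.69) between the same sets, and 4 of 5 exhaustion factors tested were higher and 4 of 6 stemness factors lower. Without the largest clone of each library, which together held 14.2% of the expanded cells, the Prdm1 ratio was 2.69 and the Zeb2 ratio 1.98.

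In transitory Teff, 30.0% of cells had a cluster number that carried another name for most of its cells, against 0.467% to 6.97% in the other clusters. Without those cells, 755 expanded and 283 single cells gave -0.56 for Tbx21, 0.53 for Eomes, -0.74 for Zeb2 and 0.74 for Prdm1, each in the direction given next for the whole cluster. The Id2 interval then included 0, at -0.07 (-0.17 to 0.02). The S1pr5 and Klrg1 ratios of cells with over without a Zeb2 UMI were then 3.57 and 2.13.

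In transitory Teff the T-box pair parted with clone size. Tbx21 was at 74.7 CPM in 1076 expanded cells and 114 CPM in 368 single cells (-0.60, -0.82 to -0.39), and Eomes at 220.4 and 160.3 CPM (0.46, 0.30 to 0.62). Eomes was higher in the expanded cells of 4 of 4 libraries, and Tbx21 lower in 3, with library 3 at 0.47. Runx3 (0.33) and Bhlhe40 (0.48) were higher in 4 of 4 libraries.

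Zeb2 in transitory Teff was lower in expanded cells, at 33.6 against 54.6 CPM (-0.70, -1.02 to -0.38), opposite in sign to GzmB+ Teff, and the difference between the clusters was not tested. Library 4 carried most of it, at -1.62 beside 0.01 in library 2, and without library 4 the ratio was -0.27. S1pr5 was also lower in expanded cells, at 10.3 against 19.1 CPM (-0.90, -1.46 to -0.32), with library 3 at 1.90. Of the cells with a Zeb2 UMI and a TCR call, 34.1% (25.8 to 43.2) were single, against 24.7% (22.4 to 27.1) of those without. Prdm1 was at 0.73 (0.25 to 1.23) and at 1.24 without library 4, where it was -0.15. Id2 was at -0.15 (-0.24 to -0.07), with values of -0.25 without library 3 and -0.02 without library 4.

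Among cycling cells, expanded cells had more Zeb2 (1.24, 0.77 to 1.73), Prdm1 (0.93, 0.56 to 1.32), Bhlhe40 (0.81, 0.61 to 1.03), Runx3 (0.51, 0.36 to 0.68) and Eomes (0.33, 0.18 to 0.48), in 4 of 4 libraries each. Tbx21 was lower (-0.41, -0.62 to -0.21), with library 3 at 0.07. Prdm1 was the most even of them across libraries, from 0.85 to 0.95.

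In the remaining clusters with both kinds of cells, Prdm1 was higher in expanded cells of GzmA+ Tex (49.0 against 19.9 CPM) and TIGIT+ Teff (100.5 against 66.5 CPM; log2 ratio 0.60, 0.08 to 1.13), in 4 of 4 libraries each. The library with the fewest held 18 expanded GzmA+ Tex cells, and for TIGIT+ Teff it held 9. TIM-3+ Tex, with 42 single cells in all, had a Prdm1 ratio of 0.44 (-0.18 to 1.12), with 2 libraries in each direction. Tcm had ratios of -0.08 (-1.24 to 0.90) for Prdm1, -0.45 (-1.80 to 0.64) for Zeb2 and 0.09 for Bhlhe40, from 218 expanded cells.

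**Figure D5:**
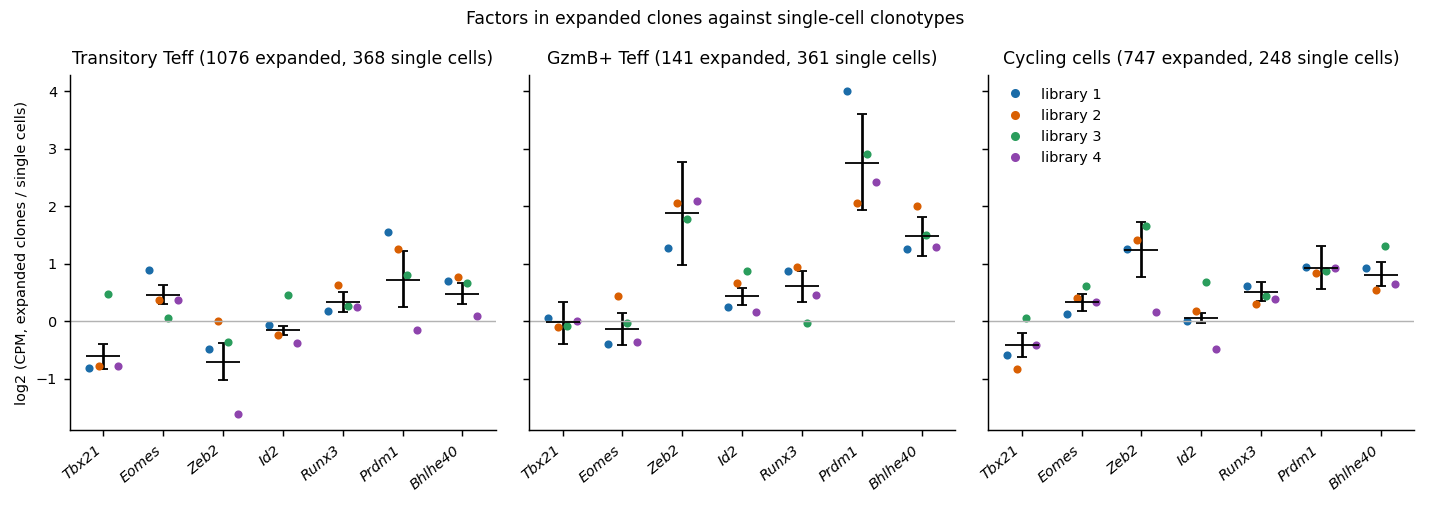
Log2 ratio of CPM in cells of expanded clones to cells of single clonotypes (vertical axis) for the 7 factors in transitory Teff, GzmB+ Teff and cycling cells. Black marks are all libraries with the 95% counting interval and dots the single libraries. Prdm1 in GzmB+ Teff is highest at 2.76, and Zeb2 lies below 0 in transitory Teff and above 0 in the other panels.

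Genes that moved most like each factor were ranked by Pearson correlation of log2(CPM + 10) over the 32 combinations of cluster and library, among 4073 genes. These points share libraries and depth, so the values are descriptions. For Prdm1 the first was Havcr2, which encodes TIM-3 (r = 0.96, Spearman 0.95), followed by Vmp1 and 2010111I01Rik. Havcr2, like Prdm1, had its highest level over all libraries in TIGIT+ Teff, at 78.8 CPM for Havcr2, and not in TIM-3+ Tex. For Tbx21 they were Skap1 (0.86, Spearman 0.84), an adaptor of TCR signals to integrins, Ccnd3 and Phc2.

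For Eomes they were Sla (0.94), Fyn and Bhlhe40 (0.90), the last a member itself. Zeb2 was closest to Hip1 (0.94), Msi2 and Fam129a, Runx3 to Mdfic (0.94), Prex1 and Aplp2, Id2 to Gimap7 (0.89), Glrx and Cd7, and Bhlhe40 to Cd82 (0.96), Fyn and Osbpl3. Among the members, every pair without Tbx21 had r between 0.72 and 0.91, and Tbx21 had r between -0.27 (with Prdm1) and 0.12 (with Eomes).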

How the data were processed

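Per the labels, CD8+ T cells from 5 pooled mice per group were loaded on a droplet platform that reads the 5' end, and the submitters' processing notes name Cell Ranger 7.00 and mm10. The authors deposited raw UMI counts per gene and cell, made after reads were downsampled across libraries, and each cell's fraction of mitochondrial UMIs, with cluster names, library numbers and TCR clonotypes. Further versions and doublet removal are not given in the sources used here. Cells held 2502 to 24983 UMIs and at most 14.5% mitochondrial UMIs.

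Counts were summed per cluster and library and divided by all UMIs (CPM), with exact Poisson, conditional binomial and Clopper-Pearson 95% intervals. PCR and cell sampling error are not in them. Shares of cells used cells thinned to 2500 UMIs (seed 7). No test was run, since each treatment had 1 library with an unknown number. A gene was tested against the 2-fold threshold, in the same direction in 4 libraries, at 50 CPM on either side. On simulated counts for 10203 genes, Teff and Tex over Tn, 95.2% of intervals held the true ratio. Those counts were drawn with counting error alone. The share therefore checks the calculation and says nothing about variation between cells, clones or libraries.

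The members and lists were chosen with earlier results of these data known. Named were the members, list genes past the threshold (up to 4 per list) and the 3 most correlated genes per member. Other genes, the Zeb2 and Prdm1 splits, shared clones and leaving out the largest clones or cells with disagreeing cluster numbers were chosen after values were seen. One listed gene is not reported here. Gene positions came from GENCODE (GRCm38) and promoters from RefSeq. Alternatives were equal weights, thinning, cluster numbers for names, 1 cell per clonotype, a pseudocount of 10 CPM, marker-poor cells and leaving out each library. The software was Python 3.11.15 with matplotlib 3.10.9 for plots, pandas 2.3.3, and scipy 1.17.1 on numpy 2.4.6.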

Additional observations from a re-analysis of the deposited data

How the results depend on the processing

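No paired analysis was possible because no result comes from a test, and cluster ratios are given within each library instead. For Teff and Tex over Tn (log2), weighting every cell the same gave 0.33 for Tbx21 and 1.16 for Id2, and 1 cell per clonotype gave 0.47 for Tbx21, 0.84 for Eomes, 0.88 for Id2 and 0.80 for Runx3. Cluster numbers in place of names gave 3.33 for Zeb2 and 1.02 for Id2, thinning 1.10 for Runx3, and a pseudocount of 10 CPM 1.89 for Zeb2, 2.07 for Prdm1 and 2.20 for Bhlhe40. Thinning gave 0.68 for Eomes in expanded over single transitory Teff. For cells with over without a Zeb2 UMI, no thinning gave 1.48 for Klrg1, 1.03 for Cx3cr1, 0.54 for Tbx21, -0.19 for Tox and the opposite sign for Klf2 at -0.085, and the cause was not tested. With each library left out in turn, expanded over single transitory Teff gave 0.38 to 0.72 for Bhlhe40, -0.25 to -0.015 for Id2, 0.49 to 1.24 for Prdm1 and -0.92 to -0.27 for Zeb2, the ends nearest 0 for Zeb2 and Id2 and the highest for Prdm1 and Bhlhe40 coming without library 4. Cells with over without a Zeb2 UMI gave -0.94 to -0.34 for Cxcr3 and 0.35 to 0.70 for Klf2, both nearest 0 without library 1. Low counts limit Zeb2 and Prdm1 in Tn, at 25 and 27 UMIs.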
